A study of Homo sapiens with 8 samples.

Results

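The regions described here are H3K27me3 islands that were called in both libraries of DMSO-treated PC9 cells and in neither library of GSK126-treated cells when the libraries were compared at equal depth. Of the 26380 islands in the equal-depth list of DMSO replicate 1, 23873 overlapped an island of DMSO replicate 2 by at least 1 bp and are called shared islands below. Of these, 3356 overlapped no GSK126 island of either replicate and are called lost islands, which is 14.1% of the shared islands, and the other 20517 are called kept islands. The members were selected on the presence or absence of islands in these 4 lists, so the counts by this rule, and the lengths and scores in the same lists, are a description without a test. Lost means that no island was called. Tags below the threshold of the caller may remain in the GSK126 libraries, and the lists do not show them.

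PC9 cells are an established line from a human lung adenocarcinoma. GSK126 inhibits the methyltransferase EZH2. The libraries came from cells kept for 5 days in DMSO, the vehicle, or in 1 μM GSK126, and chromatin of D. melanogaster cells had been added to each sample as a spike-in. For each mark, H3K27me3 and H3K4me3, there were 2 libraries with DMSO and 2 with GSK126, and the authors deposited 14 lists of islands for the 8 libraries. All libraries came from a single cell line. The authors call the repeated experiments biological replicates, and nothing in the labels says whether the 2 libraries of a group came from separate cultures.

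H3K27me3 is placed by the Polycomb repressive complex PRC2, whose catalytic subunit is EZH2, and it marks genes that are held silent, many of them regulators of development. In mammals PRC2 is found at CpG-rich gene starts, from where the mark can spread, and it also forms broad domains of lower density in silent chromatin between genes and within them. H3K4me3 marks the starts of genes that are active or poised, and the starts that carry both marks are called bivalent.

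The islands were called by SICER, which counts tags in windows of 200 bp, joins enriched windows across short gaps into an island, and gives each island a score that sums the improbability of its tag counts. For the equal-depth lists, the larger library of each replicate had been thinned at random to the tag number of the smaller. The tag density that the island scores of these lists imply was 1.36 tags per window in both libraries of replicate 1 and 1.55 in both libraries of replicate 2. The DMSO lists held 26380 islands in replicate 1 and 33341 in replicate 2, and the GSK126 lists 22124 and 22624. The lowest score in a list was 56.7 in replicate 1 and 38.2 in replicate 2.

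The sequences of 6 stretches show what the lost islands covered. First come gene starts of 3 of the 4 highest-scoring lost islands that hold the start of a protein-coding gene, from 250 bp before to 50 bp after the start (GRCh37, the build of the lists, 5′ to 3′ on the strand of the gene). Capitals mark each CG dinucleotide, since CpG density is the sequence feature known for PRC2 at gene starts.

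PIFO, chr1:111888972-111889271, plus strand: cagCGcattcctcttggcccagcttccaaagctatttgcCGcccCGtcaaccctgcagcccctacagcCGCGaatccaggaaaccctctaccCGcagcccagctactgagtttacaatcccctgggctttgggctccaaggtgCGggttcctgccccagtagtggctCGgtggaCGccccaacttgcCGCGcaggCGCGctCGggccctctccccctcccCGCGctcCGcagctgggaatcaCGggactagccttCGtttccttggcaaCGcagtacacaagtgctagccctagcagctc

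SLC16A8, chr22:38480142-38480441, minus strand: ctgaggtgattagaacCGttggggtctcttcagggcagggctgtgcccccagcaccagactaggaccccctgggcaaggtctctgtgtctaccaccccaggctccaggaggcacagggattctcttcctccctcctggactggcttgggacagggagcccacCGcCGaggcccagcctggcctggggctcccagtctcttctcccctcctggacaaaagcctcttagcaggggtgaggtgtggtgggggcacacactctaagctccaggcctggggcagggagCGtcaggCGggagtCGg

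TVP23A, chr16:10912602-10912901, minus strand: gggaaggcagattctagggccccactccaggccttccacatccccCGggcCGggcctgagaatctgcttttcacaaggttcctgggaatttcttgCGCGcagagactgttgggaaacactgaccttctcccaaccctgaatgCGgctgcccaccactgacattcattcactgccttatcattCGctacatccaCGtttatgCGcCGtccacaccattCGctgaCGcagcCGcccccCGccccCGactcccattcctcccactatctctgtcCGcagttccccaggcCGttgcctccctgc

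The start of PIFO held 20 CG dinucleotides and that of TVP23A 16, whereas that of SLC16A8 held 6. Over the 214 protein-coding genes with a start in a lost island the median was 9.5, against 13 over the 2842 genes with a start in a kept island and 18 over all 20136 protein-coding genes. At least 10 CG dinucleotides were present at 50% of the starts in lost islands, at 58.4% of those in kept islands and at 66.1% of all starts.

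Most lost islands held no such start, and the central 200 bp of the 3 highest-scoring of those are given next, on the plus strand, for comparison with the gene starts.

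Centre of the island within SHANK2, chr11:70383201-70383400, plus strand: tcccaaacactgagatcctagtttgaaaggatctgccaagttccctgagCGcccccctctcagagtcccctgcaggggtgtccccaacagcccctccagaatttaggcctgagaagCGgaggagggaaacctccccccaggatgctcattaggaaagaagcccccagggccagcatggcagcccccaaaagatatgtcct

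Centre of the island over PSPHP1, chr7:55841001-55841200, plus strand: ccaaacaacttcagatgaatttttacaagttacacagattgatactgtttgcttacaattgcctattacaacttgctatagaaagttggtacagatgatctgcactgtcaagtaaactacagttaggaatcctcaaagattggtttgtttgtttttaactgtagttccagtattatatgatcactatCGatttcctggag

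Centre of the island over ZNF835, chr19:57174801-57175000, plus strand: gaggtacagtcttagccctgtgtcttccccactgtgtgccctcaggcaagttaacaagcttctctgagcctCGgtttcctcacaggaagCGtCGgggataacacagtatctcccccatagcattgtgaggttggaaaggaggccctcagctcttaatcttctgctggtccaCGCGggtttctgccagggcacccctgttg

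These stretches held 2, 1 and 5 CG dinucleotides in 200 bp. The G+C content was 58% at the first and 34% at the second, so few CG dinucleotides were present in both a G+C-rich and an A+T-rich stretch.

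Each GSK126 library taken alone gave a different number. In replicate 1, 4008 shared islands had no GSK126 island, which is 16.8% of the shared islands, and in replicate 2 the number was 6425, or 26.9%. Of the 4008 islands without a GSK126 island in replicate 1, 83.7% also had none in replicate 2, against 15.4% of those with one in replicate 1. The mirrored rule asked for islands called in both GSK126 libraries and in neither DMSO library. It gave 298 of 17967 shared GSK126 islands, or 1.66%.

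The lost islands lay at the low end of length and score. Their median length was 5000 bp, against 8000 bp for kept islands, and their lengths ran from 400 to 33800 bp. Together they covered 18.1 Mb, which is 6.83% of the 266 Mb of the shared islands. The median score in DMSO replicate 1 was 77.0 for lost islands and 186 for kept islands. Per window the median score was 3.15 in lost and 5.05 in kept islands in DMSO replicate 1, and 3.61 and 5.71 for the islands of DMSO replicate 2 at the same places. The lower score per window was thus present in both DMSO libraries, although both were used by the rule. DMSO replicate 2 islands covered a median of 71.4% of a lost island and 87.8% of a kept island.

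**Figure D1:**
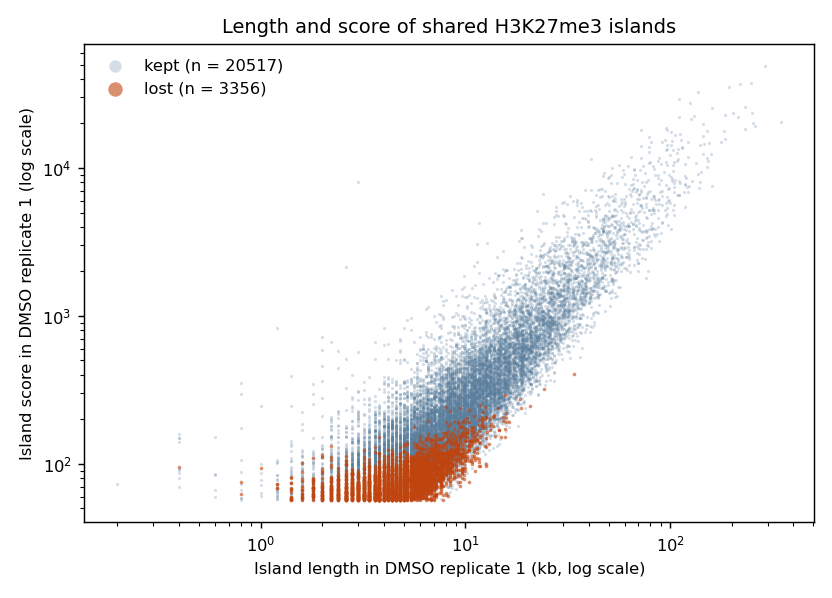
Each point is 1 of the 23873 shared islands, with its length in kb (x axis, log scale) against its score (y axis, log scale), both in DMSO replicate 1. The 3356 lost islands lie along the lower edge, with a highest score of 403 and a greatest length of 33.8 kb, and the kept islands extend beyond both.

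Length alone showed the lost share going down among long islands. Of islands from 2 to under 3 kb, 28.6% were lost, and of those from 5 to under 10 kb, 16.8%. From 20 to under 40 kb, 3 of 1969 islands were lost, or 0.152%, and none of 762 islands of 40 kb and longer. Over the score the lost share went from 47.9% in decile 1, the lowest of the shared islands, to 0.126% in decile 8, and to 0 in deciles 9 and 10. At a given score, however, the order of the lengths turned around. In decile 1, 41.3% of islands under 3 kb, 46.6% of those from 3 to under 5 kb and 58.3% of those from 5 to under 10 kb were lost. In decile 4, with scores from 101 to 123, the share was 7.08% under 3 kb, 7.01% from 3 to under 5 kb, 19% from 5 to under 10 kb and 43.8% from 10 kb on, the last over 48 islands. Among islands of 1 score, the longer islands have the lower score per window.

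**Figure D2:**
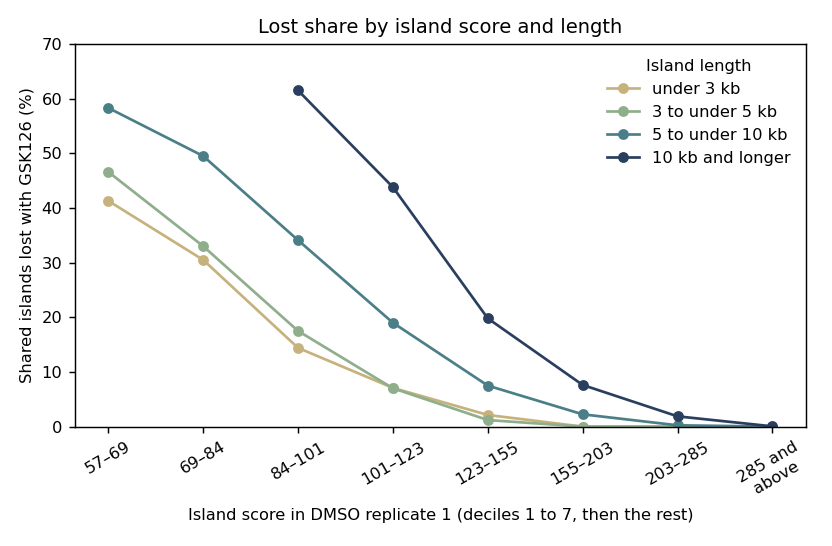
The share of shared islands that were lost (y axis, %) is plotted by the score in DMSO replicate 1 (x axis, deciles 1 to 7 of the islands and then the rest), with 1 line for each class of island length. Each line goes down with score, and in decile 4 the longest class stands at 43.8% and the shortest at 7.08%.

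Some lost and kept islands lay close to the overlap threshold. Among the 3356 lost islands, 323 had a GSK126 island within 1000 bp and 1674 within 10000 bp, and 379 had none within 100000 bp. The median gap to the nearest GSK126 island was 10200 bp. Just inside the threshold, the lost island at chr11:115487401-115492000 adjoined a GSK126 island of replicate 1 with a gap of 0 bp, as did those at chr12:1671201-1678000 and chr12:4862401-4866800. Just outside it, the kept islands at chr1:15080201-15085200, chr1:35152201-35155400 and chr11:64828601-64835800 were overlapped over 200 bp in replicate 1 and over 0 bp in replicate 2, and 25 kept islands were overlapped over 200 bp at most. At the other end, the lost island at chr10:55769201-55771400 was 2933400 bp from the nearest GSK126 island. The next, at chr7:116888801-116898400 and chr7:86859001-86861000, were 2289000 and 2040400 bp away.

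Of the kept islands, 16796 were overlapped in both replicates, 3069 in replicate 1 only and 652 in replicate 2 only. Fewer than 50% of the bases were covered in 1240 of them.

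The spike-in lists of the same 4 H3K27me3 libraries are not an independent readout at the lost islands. In those lists the DMSO libraries kept all of their tags and tags had been removed from the GSK126 libraries by the correction factor from the D. melanogaster tags, so they share reads with the lists that made the choice. For GSK126 replicate 1, the implied tag density was 0.382 tags per window in the spike-in list and 1.36 in the equal-depth list. The near absence of GSK126 spike-in islands at lost islands was thus largely set in advance by the rule. A DMSO spike-in island overlapped 3206 lost islands, or 95.5%, in replicate 1 and 3306, or 98.5%, in replicate 2, beside 98.9% and 99.7% of all shared islands. A GSK126 spike-in island overlapped 32 lost islands, or 0.954%, in replicate 1 and 12, or 0.358%, in replicate 2, beside 54% and 50.1% of the shared islands. In all, 43 lost islands were overlapped in either of the GSK126 spike-in lists and 1 in both.

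Lost islands stood farther from other islands than kept islands did. The median gap to the next island of DMSO replicate 1 was 5800 bp for lost and 1800 bp for kept islands. The lost share was 5.77% of the 5672 shared islands with a neighbour less than 1 kb away, 13.6% at 2 to under 5 kb, 22.5% at 10 to under 20 kb and 29.2% at 50 to under 100 kb, and 25.4% of the 911 islands with none within 100 kb. The difference was smaller when kept islands were weighted to the scores and lengths of the lost ones, over 22 classes of score and length that held 3347 lost islands. The geometric mean gap was then 6.87 kb at lost islands and 4.41 kb at kept islands, against 2.96 kb at kept islands without weights. This weighting was chosen after the data were seen.

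**Figure D3:**
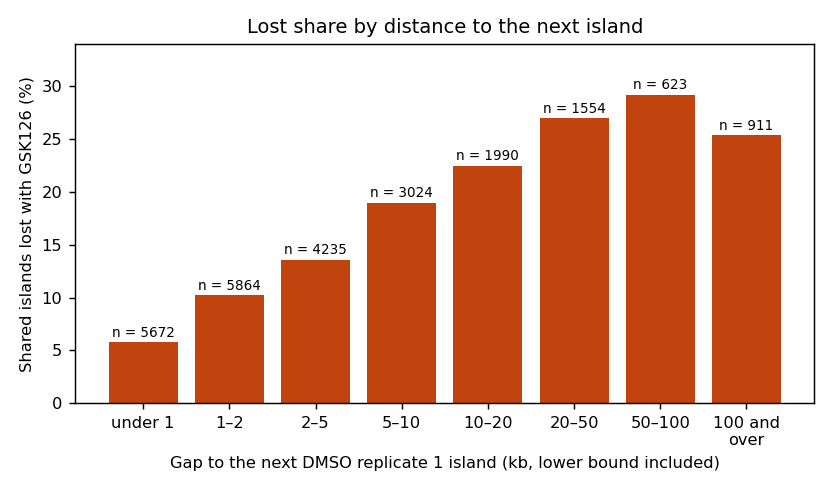
Bars give the share of shared islands that were lost (y axis, %) by the gap to the next island of DMSO replicate 1 (x axis, kb), with the number of shared islands above each bar. The bars go from 5.77% under 1 kb to 29.2% at 50 to under 100 kb, and the last bar stands at 25.4%.

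Lost islands also lay beside each other. The next shared island along the chromosome was lost in 25.3% of cases after a lost island and in 12.2% after a kept island. Runs of neighbouring lost islands with no kept island between them held 1471 of the lost islands, or 43.8%, and the other 1885 stood alone. Runs also arise where islands are lost independently of their neighbours, and the share in runs that a lost share of 14.1% would give was not computed. Unlike the gaps, the runs were not set against score and length. There were 448 runs of 2, 140 of 3, 24 of 4, 7 of 5 and 4 of 6.

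Of the 4 runs of 6 and the longest of the runs of 5, 3 are described here. The run at chr7:153364001-153534200 overlapped DPP6, an accessory subunit of potassium channels, with 24.4 and 25 kb of DMSO islands and 0 kb of GSK126 islands in both replicates. At chr18:59159001-59562400, DMSO islands covered 36.8 and 35 kb over CDH20, a cadherin, and RNF152, a ubiquitin ligase, and GSK126 islands again covered 0 kb. The run of 5 at chr12:128225601-128490600 overlapped no protein-coding gene, and its highest-scoring island, with a score of 170, was above every island of the 4 longer runs. In this run DMSO islands covered 33 and 19.8 kb and GSK126 islands 0 kb in both replicates.

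By chromosome, the lost share ran from 5.98% of the shared islands on chromosome 4, with 21 of 351, to 17.9% on chromosome 3, with 178 of 993. Chromosome Y held 13 shared islands, of which 0 were lost. The shares on chromosomes 20, 16 and 11 were 17.6%, 17.1% and 16.2%. Leaving out chromosome Y, lost islands per Mb of chromosome ran from 0.110 on chromosome 4 to 3.08 on chromosome 20. These values also depend on the number of shared islands, which was 351 on chromosome 4 and 1100 on chromosome 20. Chromosome 19 had more lost islands per Mb than chromosome 3 but a lower lost share, at 11.2% against 17.9%. Shared islands per Mb were not computed, so the order per Mb is not a trait of lost islands alone.

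The highest-scoring lost island was at chr11:70366401-70400200, within SHANK2, a scaffold protein of excitatory synapses, and it overlapped no exon. It was 33.8 kb long with a score of 403 in DMSO replicate 1, DMSO replicate 2 islands covered 23800 bp of it, and GSK126 islands covered 0 bp in both replicates. The nearest GSK126 island was 52800 bp away in each. In the spike-in lists, DMSO islands covered 24600 and 27200 bp and GSK126 islands 0 bp. No H3K4me3 island overlapped it in any of the 4 libraries.

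The second, at chr7:55829001-55853200, covered 24.2 kb with a score of 321 and held the pseudogene PSPHP1. DMSO replicate 2 islands covered 9800 bp of it, and the nearest GSK126 island was 88600 bp away. On chromosome 19, the islands at chr19:57149401-57165000 and chr19:57169001-57180800 lay next to each other, the first with a score of 294 over the start of SMIM17, a small membrane protein, and the second with a score of 249 over exons of ZNF835, a zinc finger gene. The second of them had a GSK126 island 800 bp away in replicate 1 and 1000 bp away in replicate 2. DMSO replicate 2 islands covered 1800 of the 15600 bp of the first and 7800 of the 11800 bp of the second.

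The other 8 of the 12 highest-scoring lost islands had scores from 231 to 275. The island at chr1:111884201-111902600 held the start of PIFO, a protein of cilia, that at chr22:38476201-38496800 the start of SLC16A8, a monocarboxylate transporter, and that at chr16:10898801-10917400 the start of TVP23A, a Golgi membrane protein. DMSO replicate 2 islands covered only a small part of each, with 3600 of 18400 bp at PIFO, 3400 of 20600 bp at SLC16A8 and 5200 of 18600 bp at TVP23A. The PIFO island also had GSK126 islands 1800 bp away in replicate 1 and 1600 bp away in replicate 2. The island at chr19:14042001-14050000 lay over exons of PODNL1 and had the highest score per window of the 12 in DMSO replicate 1, at 6.09, with GSK126 islands no nearer than 114200 bp. The other 4, at chr2:106548401-106560800, chr10:51496001-51505400, chr10:125148601-125163000 and chr7:2914801-2925200, overlapped no protein-coding gene. The island at chr7:2914801-2925200 was overlapped by an H3K4me3 island over 1200 bp in GSK126 replicate 1 and 1600 bp in GSK126 replicate 2 and over 0 bp in both DMSO libraries. It was the single lost island with this pattern.

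**Figure D4:**
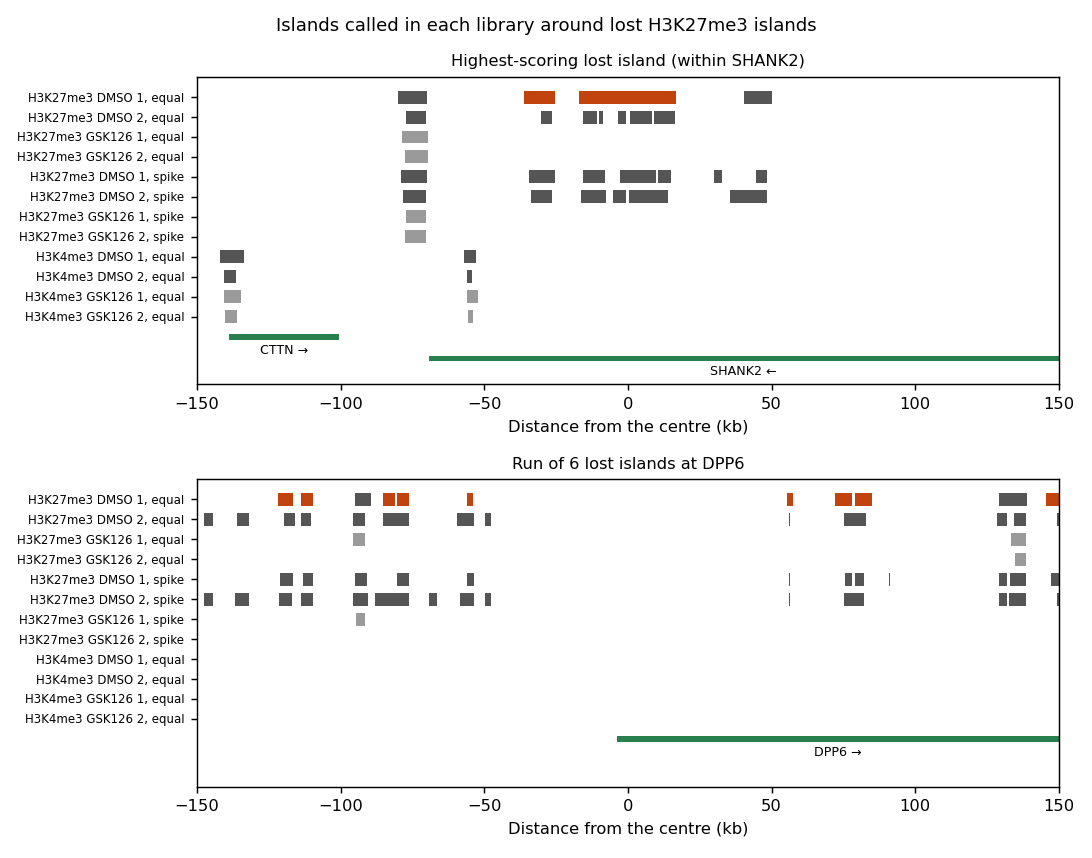
Each bar is an island in a library's list (rows; equal is equal depth, spike is the spike-in normalization), by distance from the centre in kb (x axis), around the highest-scoring lost island and the run of 6 lost islands at DPP6. Lost islands are red, other DMSO islands dark grey, GSK126 islands light grey and protein-coding genes green with an arrow for the strand, and no GSK126 bar lies over a red bar.

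The share of islands at starts of protein-coding genes was lower for lost than for kept islands before score and length were taken into account. A start lay inside 196 lost islands, or 5.84% (95% Wilson interval, 5.10 to 6.69), and inside 12.2% of kept islands (11.8 to 12.7), beside 11.3% of all shared islands. Within 2000 bp of a start were 311 lost islands, or 9.27%, and 15.1% of kept islands, beside 14.3% of shared islands. For the start of any annotated gene the shares were 21.8% and 32.5%, beside 31%. The intervals cover counting error only, and neighbouring islands are not independent.

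Of the lost islands, 36.9% lay within a protein-coding gene away from its start and 53.9% outside protein-coding genes, beside 35.9% and 49.8% of shared islands. An exon of a protein-coding gene was overlapped by 23.8% of lost and 34.2% of kept islands, beside 32.7%. Per base the difference was small, with 4.66% of the length of lost islands and 4.72% of the length of kept islands in exons.

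Against kept islands weighted to the same scores and lengths, the differences were small and of the other sign. A start was then within 2000 bp of 9.26% of lost islands and 8.27% of weighted kept islands, and inside 5.83% and 5.45%. The lower share of gene starts at lost islands was therefore not present between islands of like score and length.

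In base composition, the differences were smaller with weights, except for G+C content, which turned direction. A window of 500 bp with at least 55% G+C and an observed-to-expected CpG ratio of at least 0.65, as in a CpG island, was present in 274 lost islands, or 8.16%, and in 20% of kept islands, beside 18.4% of shared islands. With weights, the share was 8.19% at lost and 8.81% at kept islands. The median CpG density was 11.3 per kb in lost islands, 13.0 in kept islands and 9.85 over the genome. The median G+C content was 46.8% in lost and 47.3% in kept islands, against 40.9% over the genome. In means, the G+C content was 48.0% in lost islands and 48.2% in kept islands, and 46.7% in kept islands with weights. At like score and length, lost islands thus held more G+C by 1.27 percentage points and had about the same CpG density, at 13.7 and 13.8 per kb.

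H3K4me3 islands are a readout that the rule did not use. In the equal-depth lists, an H3K4me3 island overlapped 7.24% of lost islands in DMSO replicate 1 and 4.74% in DMSO replicate 2, and 6.35% in GSK126 replicate 1 and 4.53% in GSK126 replicate 2. Over all shared islands, the DMSO shares were 9.84% and 7.23% and the GSK126 shares 9.44% and 7.2%. The libraries of replicate 1 were above those of replicate 2 under both treatments, so the ranges of the treatments overlapped, and within each replicate the GSK126 share was the lower, with a difference of -0.89 percentage points in replicate 1 and -0.21 in replicate 2. The mean over lost islands was 5.99% with DMSO and 5.44% with GSK126, a difference of -0.55 percentage points (exact permutation test over the 4 libraries, two-sided, p = 0.667). The difference between lost and kept islands was -2.96 percentage points with DMSO and -3.35 with GSK126, and the change of -0.40 had p = 0.333 in the same exact permutation test. With 2 libraries in each group the smallest p this test can give is 0.333, so the design cannot reach 0.05. In replicate 1 the lost minus kept difference was -3.02 percentage points for the DMSO library and -3.60 for the GSK126 library. In replicate 2 these values were -2.89 and -3.10. With the libraries paired by replicate, within which the authors had equalized depth, an exact sign-flip permutation test gave p = 0.5 for both quantities, which is the smallest p that 2 pairs allow.

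An H3K4me3 island was present in all 4 libraries at 123 lost islands, or 3.67%, beside 5.94% of shared islands. It was present in both GSK126 libraries and neither DMSO library at 1 lost island, or 0.0298%, beside 0.0963% of shared islands. In both DMSO libraries and neither GSK126 library it was present at 3 lost islands, or 0.0894%, beside 0.147%. Kept islands had the higher share in each of the 4 libraries. With weights for score and length, lost islands had the higher share in each, with 7.23% against 5.28% in DMSO replicate 1, 4.72% against 3.40% in DMSO replicate 2, 6.33% against 5.15% in GSK126 replicate 1 and 4.51% against 3.52% in GSK126 replicate 2.

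**Figure D5:**
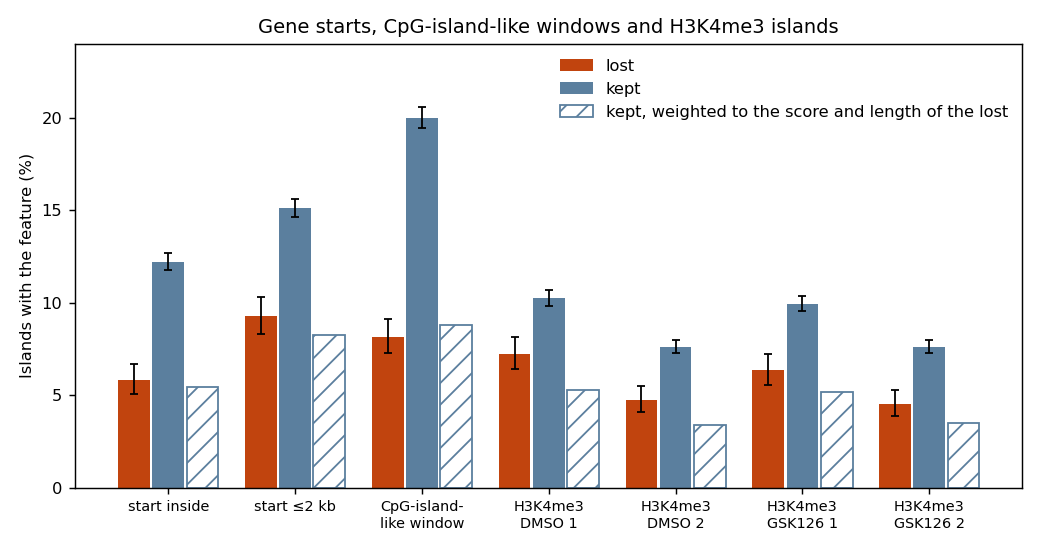
Bars give the share of islands (y axis, %) with a protein-coding gene start inside or within 2 kb, a CpG-island-like window, or an H3K4me3 island in each of 4 libraries, for lost islands, kept islands and kept islands weighted to the scores and lengths of the lost ones (hatched). Error bars are 95% Wilson intervals over islands, and the lost bars are below the kept bars for each feature but close to or above the hatched bars, at 9.26% and 8.27% for starts within 2 kb.

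In terms of genes, 214 of 20136 protein-coding genes had their start in a lost island, or 1.06%, which is 7% of the 3056 genes with a start in a shared island. Of the 196 lost islands with a start, 67 were overlapped by an H3K4me3 island in at least 1 library, or 34.2%, and 45 in all 4 libraries, or 23%, against 39.4% and 27.8% of the kept islands with a start. A CpG-island-like window was present in 48.5% of them and in 68.4% of the kept islands with a start.

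Among genes with a start in a lost island, ordered by island score, SMIM17, PIFO, SLC16A8 and TVP23A were followed by ACTG2, the gamma actin of enteric smooth muscle, with an island of 13.8 kb at chr2:74117601-74131400 and a score of 213. DMSO replicate 2 islands covered 8800 bp of it and the nearest GSK126 islands were 73600 and 73800 bp away in replicates 1 and 2. OVGP1, a glycoprotein of the oviduct, and KRT84, a hair keratin, followed with scores of 201 and 196. SH2D4B, an adaptor protein, had a score of 192 and CABP1, a calcium-binding protein of neurons, one of 190. The islands of SH2D4B and CABP1 were overlapped by H3K4me3 islands in all 4 libraries, over 4200 and 2600 bp with DMSO and 3600 and 2000 bp with GSK126 at CABP1.

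EPO, the hormone that drives red cell formation, had its start in an island of 10.2 kb at chr7:100311601-100321800 with a score of 171 in DMSO replicate 1. Islands of DMSO replicate 2 covered 7600 bp of it, GSK126 islands stood 8600 and 10000 bp away, and no H3K4me3 island overlapped it. CLDN19, a claudin of tight junctions, had its start in an island at chr1:43199401-43209600, 509000 and 559600 bp from any GSK126 island, the farthest of the 25 genes.

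A single island of 13.2 kb at chr16:2024001-2037200 held the starts of GFER, a sulfhydryl oxidase, NOXO1, a subunit of the NADPH oxidase complex, and AC005606.1. It had a score of 169, and H3K4me3 islands overlapped it over 13200 and 11400 bp with DMSO and 12800 and 8400 bp with GSK126. The island over the start of MAPK11, a p38 kinase, at chr22:50700801-50710600, had a score of 155 and was likewise overlapped over 9800 and 7600 bp with DMSO and 9000 and 5200 bp with GSK126. These islands lay almost wholly under H3K4me3 islands in DMSO replicate 1, whereas most of the 25 genes had no H3K4me3 island in at least 1 library.

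The rest of the 25 had scores from 149 to 179. They were TARM1, a receptor of myeloid cells, BAIAP2L2, a protein of membrane protrusions, C16orf54, EPS8L3, TRIM10, a gene of erythroid cells, FCAMR, an Fc receptor, MYL9, a light chain of smooth muscle myosin, and TREH, the enzyme that splits trehalose. At BAIAP2L2 and EPS8L3 an H3K4me3 island was present in DMSO replicate 1 only, over 1800 and 2200 bp.

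Genes of development are the best known targets of PRC2. Of 179 homeobox transcription factor genes, 88 had a start in a kept island and 3 in a lost island. The 3 were HOXA5, HOXB8 and HOXB1, with scores of 98.0, 91.0 and 59.3, and the island of HOXA5, at chr7:27181801-27188600, lay 800 bp from a GSK126 island of replicate 1. That of HOXB8 lay 400 bp from a GSK126 island of replicate 1 and 2400 bp from one of replicate 2. Of 142 genes for other developmental transcription factors, 49 were in kept islands and 1, GLI3 of the hedgehog pathway, in a lost island. In the Wnt pathway the numbers were 16 and 2 of 47. Of the starts in shared islands, lost islands thus held 3.30%, 2% and 11.1% in these 3 groups, beside 7% over all genes, and the differences were not tested. WNT3 and WNT9B had annotated starts in 1 island of 3.6 kb at chr17:44908601-44912200 with a score of 69.0.

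The groups of channels, receptors and signals named next had from 0 to 2 starts each in lost islands. G protein-coupled receptors outside olfaction and olfactory receptors, given further below, had 6 and 4. Of 95 potassium channel genes, 49 had a start in a kept island and 0 in a lost one, of 40 calcium and sodium channel genes 21 and 0, of 50 glutamate and GABA receptor genes 16 and 0, and of 47 genes of the TGF-beta superfamily 8 and 0. Among 78 genes for FGFs and receptor tyrosine kinases, 22 were in kept islands and 1, NTRK2, the receptor of BDNF, in a lost one. The lost islands held 1 of 96 cadherin and protocadherin genes, PCDHGA11, with 18 in kept islands. Of 175 genes for chemokines, interleukins and their receptors, 2 were in lost islands, IL31 and CCL18, and 39 in kept ones. The lost share of the starts in shared islands was 4.35% for FGFs and receptor tyrosine kinases, 5.26% for cadherins and 4.88% for chemokines and interleukins, beside 7% over all genes, and these differences were not tested either.

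By share of all genes in the group, the keratins had the most starts in lost islands. Of 50 keratin genes, 3 had a start in a lost island, or 6%, and 11 in a kept one. Lost islands thus held 21.4% of the keratin starts in shared islands, beside 7% over all genes. These 3 were KRT84, KRT82 and KRT83, hair keratins that lie near each other on chromosome 12, in separate islands with scores of 196, 125 and 124. The island of KRT83 lay 800 bp from a GSK126 island of replicate 2. Of 202 receptor genes outside olfaction that couple to G proteins, or match the list by name, 6 were in lost islands, or 2.97%, with 58 in kept ones. Among these were HTR3D, HTR3E, GPR152, ADRA1A and GPR84, of which HTR3D and HTR3E encode subunits of an ion channel for serotonin. Of 105 genes of collagens and the matrix, 3 were in lost islands, ADAMTS17, ADAMTS4 and MMP21, all proteases, and 37 in kept ones. The island of MMP21 lay 800 and 400 bp from GSK126 islands of replicates 1 and 2. Solute carriers counted 6 of 373 in lost islands, or 1.61%, olfactory receptors 4 of 399, or 1%, and C2H2 zinc finger genes 3 of 508, or 0.591%, with 76, 41 and 29 in kept islands. Cytosolic ribosomal protein genes and genes for PRC2 and PRC1 subunits had no start in a lost island and 1 start each in a kept island, of 82 and 29 genes. Over all protein-coding genes the shares were 1.06% in lost and 14.1% in kept islands, and the differences between groups were not tested.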

How the data were processed

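The authors aligned 50-nt tags to hg19 with BWA, removed duplicates, and called islands for each library with SICER, without pooling replicates. Per the labels, SAMtools 0.1.18 was also used. The deposited value of each island is its SICER score, which depends on the tag density of the library and was not compared between lists. The authors equalized libraries by random removal of tags, within a replicate or by the spike-in. Tag counts per island were not used here.

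From the lists, Python 3.11.15 and NumPy 2.4.6 gave overlaps, gaps and covered lengths, and tag density was solved with SciPy 1.17.1 from the scores of islands of 1 and 2 windows. Base composition and gene positions came from GRCh37 and GENCODE release 44 mapped to GRCh37, and the sequences from GRCh37 as well. Overlap selection was tested on 1950 simulated islands, of which 100% were assigned as simulated. For the H3K4me3 libraries exact permutation tests were used, unpaired and paired by replicate, and no other comparison was tested. The members, the gene lists and the rules were chosen with earlier results of these data known. Regions named are the 12 highest-scoring lost islands, the 5 longest runs and those at the threshold. Genes named are the 25 with the highest-scoring islands and up to 3 of each group, and where few were found, all of them, apart from a few regions, genes and a sequence that are not reported here. Replicates were numbered in accession order. Alternatives changed the score threshold, the overlap, the chromosomes, the length, the base list, the normalization, the distance to genes or to H3K4me3 islands, and the replicates.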

Additional observations from a re-analysis of the deposited data

How the results depend on the processing

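With a replicate block over the 2 pairs of libraries, added after the data were seen, the H3K4me3 differences of -0.55 and -0.40 percentage points had p = 0.5 (exact sign-flip permutation test), the smallest p possible. The island counts come from no test, and the rule itself uses both replicates. Of 78 alternatives, 57 left the value within the spread between replicates, within 1.5 times (counts), or on the same side of the test's threshold. That spread (11.5 percentage points for the lost share) is the standard deviation of the results with 1 replicate left out, themselves among the 78. The H3K4me3 tests could not cross the threshold, since their smallest possible p was 0.333 unpaired and 0.5 paired (exact permutation tests). Their place in the 57 is thus uninformative. Among them the lost minus kept change ran from -0.49 (H3K4me3 islands within 2000 bp) to -0.043 (GSK126 spike-in H3K4me3 lists). Another 3 turned a direction, all with kept islands weighted to the score and length of the lost ones. This weighting was chosen after the data were seen. Under it the lost minus kept difference was 0.99 percentage points for gene starts within 2000 bp (from -5.88), 1.36 for H3K4me3 islands as the mean of 4 libraries (from -3.15), and 1.27 for mean G+C content (from -0.54 for medians). With the GSK126 spike-in lists, 9518 islands or 39.9% were lost, the difference in median length was -4400 bp, and the differences in gene starts, H3K4me3 islands and G+C content were -8.82, -4.96 and -1.15 percentage points. The DMSO lists stayed at equal depth in this setting, so it is not a comparison of spike-in lists on both sides. The implied tag density was 1.36 tags per window in DMSO replicate 1 and 0.382 in GSK126 replicate 1. With scores at least 2 times the lowest of each list, 1714 islands were lost, or 11.8% of the shared islands that remained (from 3356, or 14.1%). The difference in median length was then -3200 bp (from -3000). It was -2800 bp for islands of at least 2000 bp and -2600 bp for islands drawn from DMSO replicate 2, where the difference in median G+C was -0.073. With all annotated genes the difference in starts was -10.7. With 1 replicate left out, without the requirement for a second replicate, the lost share ranged from 22.1% to 38.3%, the number from 5826 to 12780, the length difference from -3200 to -3000 bp, the difference in starts from -7.80 to -5.45, that in H3K4me3 islands from -4.56 to -2.28, and that in G+C from -1.15 to -0.67. The higher share and number are those without replicate 1. The H3K4me3 difference between treatments at lost islands ranged from -0.54 to -0.29, and its lost minus kept value from -0.41 to -0.19. The cause of these shifts was not tested, except that leaving out a replicate removes a requirement and so adds lost islands by construction.

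Lists hold islands and not tags, so residual signal at lost islands was not measured. Of the lowest decile by score, 47.9% were lost, and with scores at least 2 times the lowest of each list 11.8% of shared islands were. Whether small changes in tags account for lost islands near the lowest score was not tested. The depth was equal within a replicate but not between replicates. The spread between 2 replicates is the only measure of error here.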
